A study of Mus musculus with 11 samples.

Results

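Heat shock chaperones were followed at the mRNA level in whole mouse kidney as 10 named genes, picked by gene symbol: Hspa1a, Hspa1b, Hspa8, Hsp90aa1, Hsp90ab1, Hsph1, Dnajb1, Hspb1, Hspd1 and Hspe1. Of these, 9 had a row among the 24914 rows of the count files, and Hspa1b was not analysed here. The row of Hsp90ab1 held the same count in every library as that of its neighbour Slc35b2, a sulfate donor transporter gene on the opposite strand 103 bases away, and the pair is treated as the joint locus Hsp90ab1/Slc35b2 whose reads cannot be assigned to either gene. The genes go under the name of cytosolic chaperones, but Hspd1 and Hspe1 encode the mitochondrial chaperonin and its lid, so that name fits only the rest of the set.

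The kidneys came from 129X1/SvJ mice of 5.5 weeks without or with 1 intact copy of Col4a3, a model of Alport syndrome, an inherited disease in which the type IV collagen network of the glomerular basement membrane is lost. The 11 libraries fall into 3 groups: KO antimiR-21 (Col4a3-/- mice given antimiR-21, an oligonucleotide that inhibits the microRNA miR-21, n = 4), KO PBS (Col4a3-/- mice given the buffer PBS, n = 4) and HET PBS (Col4a3+/- mice given PBS, n = 3). All groups carry at least 1 mutant Col4a3 allele, so no wild-type kidney is among them. The labels do not say whether libraries of a group come from separate animals, and p-values measure only the spread between these libraries. KO antimiR-21 replicates 1 and 2 were the most alike pair within a group. Their counts differed by a chi-squared value of 6.14 per locus, against 17.3 to 101 for all other pairs within groups. The reason was not tested.

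Heat shock proteins hold unfolded or half-folded proteins until they reach their native shape. HSP70 proteins bind short exposed stretches of a client with the help of HSP40 partners and of nucleotide exchange factors, HSP90 proteins finish the maturation of kinases and steroid receptors, small heat shock proteins hold clients in a soluble state, and the mitochondrial chaperonin folds imported proteins in a closed cage. Some members, such as Hspa8 and Hsp90ab1, are made at all times, while others, such as Hspa1a, Dnajb1 and Hsph1, are induced by heat and protein damage through the transcription factor HSF1, which binds repeats of the 5-base unit nGAAn in alternating orientation. In kidney these proteins are best known from the tubules, where ischaemia and toxins induce them.

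The promoter sequences show how unequal the members are in that repeat. Of the 10 members, 7 had a RefSeq start-site window (250 bases before to 50 after the start, build GRCm38.p6), in 10 windows, and Hspa8, Hsp90aa1 and Hsp90ab1 had none in the table. A pair of facing units, GAANNTTC or TTCNNGAA, each of which reads the same on both strands, was in 4946 of all 32851 windows (15.1%). A run of 3 units, GAANNTTCNNGAA or TTCNNGAANNTTC, which contains such pairs, was searched on both strands and found in 198 windows (0.603%). Runs of 3 were present in both windows of Hsph1, in 1 of the 2 windows of Hspd1 and in the window of Hspe1. The windows of Hspa1a, Hspa1b and Hspb1 held pairs only, and neither window of Dnajb1 held a pair. A match is a description of letters and says nothing about binding. Sequences are shown 5′ to 3′ on the gene's strand, with each matching pair in capitals. Hspa1a and Hspa1b are shown because the copies are nearly alike in this window and share much of their transcripts, and the rest because they carry the densest matches.

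Hspa1a, chr17:34972157-34972406, minus strand: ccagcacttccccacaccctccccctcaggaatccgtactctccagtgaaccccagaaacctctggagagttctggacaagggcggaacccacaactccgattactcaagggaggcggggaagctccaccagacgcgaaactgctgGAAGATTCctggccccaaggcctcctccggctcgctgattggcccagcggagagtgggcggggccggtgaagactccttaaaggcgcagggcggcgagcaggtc
Hspa1b, chr17:34959239-34959488, minus strand: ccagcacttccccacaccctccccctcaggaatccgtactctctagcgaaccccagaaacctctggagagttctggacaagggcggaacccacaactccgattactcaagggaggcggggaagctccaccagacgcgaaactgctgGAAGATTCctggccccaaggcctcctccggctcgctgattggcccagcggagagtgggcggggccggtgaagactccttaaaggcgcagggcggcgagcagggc
Hspb1, chr5:135887801-135887830, plus strand: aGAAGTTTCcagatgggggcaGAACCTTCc
Hspd1-Hspe1, chr1:55088053-55088082, plus strand: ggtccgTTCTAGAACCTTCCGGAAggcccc
Hsph1, chr5:149636287-149636308, minus strand: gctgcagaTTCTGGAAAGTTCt

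The 250-base windows of Hspa1a and Hspa1b differ at 3 positions, C44T, T47C and T249G, with the base of Hspa1a first and positions counted from 1 at the 5′ end. Their transcripts are also alike: 58.8% of all 50-base stretches of the 2967-base Hspa1a transcript occur in that of Hspa1b, so the Hspa1a count is uncertain in the sense that reads from both copies may have been placed on one, shared or dropped. The site between Hspd1 and Hspe1, which are transcribed away from each other, is an unbroken stretch of 18 bases, 72 bases before the start of Hspe1 and 127 bases before a start of Hspd1, inside an annotated exon of Hspd1. The Hsph1 site begins at base 37 of the transcript, and the pairs of Hspb1 end 89 bases before its start.

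Sequencing depth, cell makeup and library identity were as follows. After joining of identical rows, libraries held 17.9 to 39.7 M counts. Summed kidney epithelial markers lay between 15002 and 17652 CPM (counts scaled to the size of the library) in every library. The summed leukocyte markers, of which 3 of 4 were measured, were 78.0 to 90.7 CPM in KO antimiR-21, 52.0 to 111 CPM in KO PBS and 27.2 to 52.5 CPM in HET PBS. Skeletal muscle markers summed to at most 0.593 CPM and no member of that list passed the filter on low counts. Red cell markers, of which 2 of 3 were measured, summed to 20.7 to 29.7 CPM in KO antimiR-21 and 18.7 to 25.9 CPM in KO PBS. Both KO groups lay below HET PBS, at 31.4 to 36.8 CPM. Most of that sum was the joint locus Alas2/Tmem29 (18.5 to 34.9 CPM over all libraries), whose reads cannot be assigned to either gene. Hba-a1 had 0.230 to 1.85 CPM. Adrenal cortex markers summed to 60.3 to 66.4 CPM over all libraries. Nearly all of this was the joint locus Ash2l/Star (59.3 to 64.7 CPM), whose reads cannot be assigned to either gene. Tubular injury genes summed to 2608 to 3235 CPM in KO antimiR-21, 1956 to 7701 CPM in KO PBS and 1207 to 2587 CPM in HET PBS. Most of this sum was Spp1, at 2004 to 2713, 1396 to 6782 and 741 to 2026 CPM in the same order. The list also holds Cryab, a small heat shock protein gene. Adipocyte markers reached 8.57 CPM in KO antimiR-21 replicate 1 and at most 3.24 CPM elsewhere. Col4a3 shared its count with Col4a4, and this joint locus had 512 to 801 CPM in KO antimiR-21, 613 to 1011 CPM in KO PBS and 877 to 1252 CPM in HET PBS. The sources used here do not give the mutated stretch, so these reads do not check the labels. Ddx3y, a helicase gene of the Y chromosome, was at 89.8 to 108 CPM in 5 libraries (KO antimiR-21 replicate 4, KO PBS replicates 3 and 4, HET PBS replicates 2 and 3) and at 0 to 0.216 CPM in the other 6. The labels give no sex, and these are called libraries with and without Y-linked reads.

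Measured per length, the constitutive and mitochondrial members were the most abundant. Over all libraries Hspa8 averaged 198 CPM per kb of exon (lowest library 135, highest 284), Hspd1 190.4 (147 to 249.9) and the Hsp90ab1/Slc35b2 locus 178 (154 to 209), and the ranges of all 3 overlap. Next came Hspe1 at 74.5 CPM per kb (59.4 to 94.9) and Hsp90aa1 at 63.6 (44.4 to 87.7), which also overlap. Hsph1 followed at 19.0 CPM per kb (15.7 to 27.3), apart from Hsp90aa1 above it and Dnajb1 below it, though its lowest library was below the highest of Hspb1. Dnajb1 at 10.6 CPM per kb (8.88 to 12.02) and Hspb1 at 10.2 (5.95 to 16.9) overlap. Hspa1a was lowest at 2.55 CPM per kb (1.06 to 3.81), below every library of the next member. For the joint locus the length is that of both genes, and where several transcripts share a gene the length is the union of its exons.

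**Figure D1:**
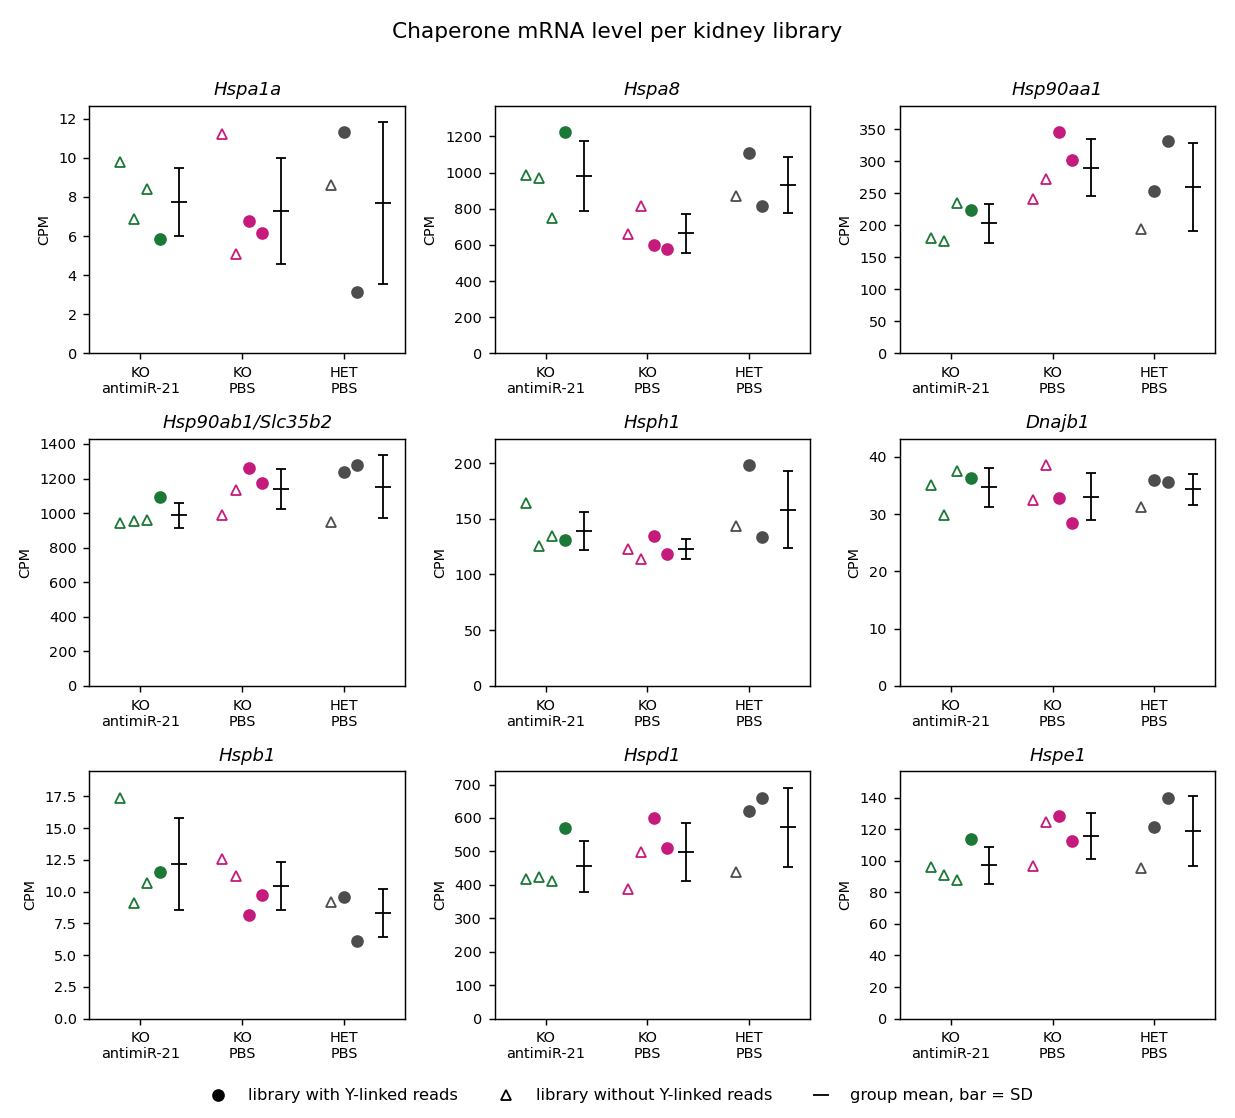
Level of the 9 measured chaperone loci in CPM (y axis, from 0) for each of the 11 libraries, in the groups KO antimiR-21, KO PBS and HET PBS from left to right. Filled circles are libraries with Y-linked reads, open triangles those without, and bars give the mean and SD of the group. Hspa8 is lower in KO PBS (mean 664 CPM) than in KO antimiR-21 (981) or HET PBS (930.3), with 1 KO PBS library inside the range of each, and Hspd1 is higher in filled than in open symbols in every group.

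The question set by the design is whether chaperone mRNA differs with loss of Col4a3 and with miR-21 inhibition. None of the 9 loci passed edgeR's quasi-likelihood test at an adjusted p under 0.05 in any of the 3 comparisons. The share of all 14449 tested loci that passed was 0% for KO antimiR-21 against KO PBS, 0.00692% for KO antimiR-21 against HET PBS and 0% for KO PBS against HET PBS. The single locus behind the 0.00692% was Fcrls, which is no chaperone and was named after its value was seen. At an unadjusted p under 0.05, edgeR found 2 of 9 members in KO antimiR-21 against KO PBS (8.28% of all loci), 1 in KO antimiR-21 against HET PBS (8.1%) and 2 in KO PBS against HET PBS (6.84%). The median log2 difference of the members was 0.07, -0.19 and -0.05 in these comparisons, and that of all loci was -0.01, 0.00 and 0.00. In whole tissue, fewer cells of a type and less RNA per cell cannot be told apart. The comparisons share their groups, so their values are not independent of each other.

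**Figure D2:**
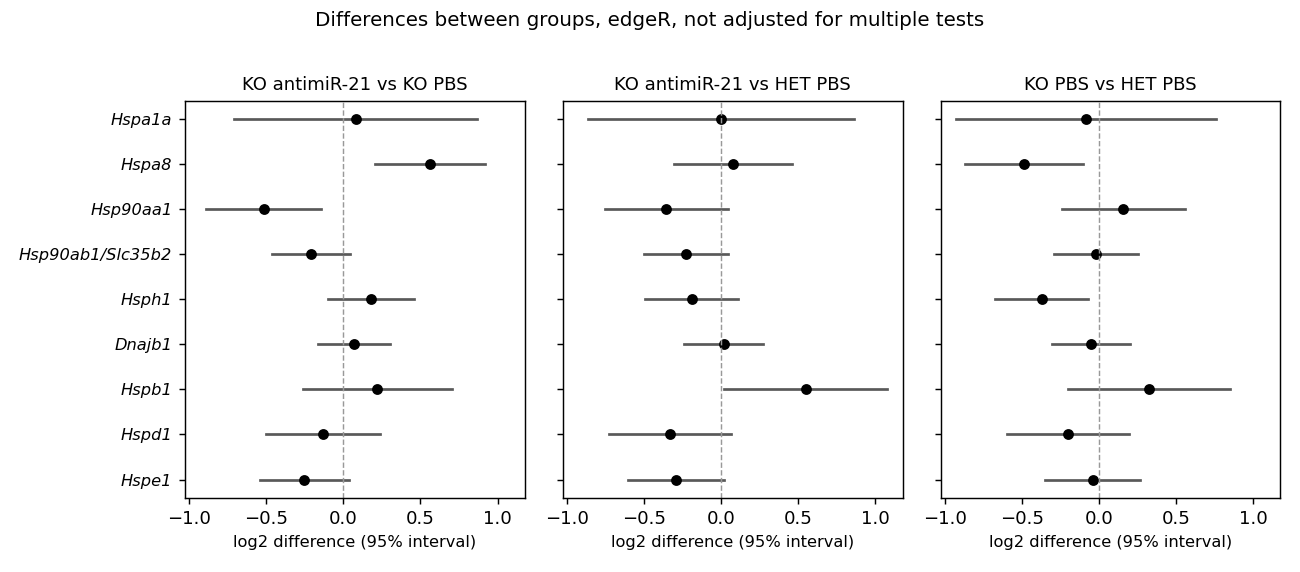
Log2 difference between groups for each chaperone locus (points) with its 95% interval (lines) from edgeR, in KO antimiR-21 against KO PBS, KO antimiR-21 against HET PBS, and KO PBS against HET PBS. The intervals are not adjusted for multiple tests, and those of Hspa8 (0.56) and Hsp90aa1 (-0.51) in the first panel, Hspb1 (0.55) in the second, and Hspa8 (-0.49) and Hsph1 (-0.37) in the third leave out 0.

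Hspa8, the constitutive HSP70 that also uncoats clathrin vesicles (chr9:40800984-40810087, plus strand), had the largest log2 differences of the set in 2 of the 3 comparisons. Its level was 984, 969.5, 749.7 and 1222 CPM in KO antimiR-21, 659, 816, 601 and 579 CPM in KO PBS, and 873, 1106 and 813 CPM in HET PBS. Only KO PBS replicate 2 reached into the ranges of the other groups, at 816 CPM. The means were 981 ± 193, 664 ± 107 and 930.3 ± 155 CPM (SD, n = 4, 4 and 3). By edgeR the log2 difference was 0.56 (SE 0.163, 95% interval 0.21 to 0.92) for KO antimiR-21 against KO PBS, with an unadjusted p of 0.00492 and an adjusted p of 0.383. Against HET PBS it was 0.08 in KO antimiR-21 (interval -0.31 to 0.46) and -0.49 in KO PBS (SE 0.174, interval -0.87 to -0.11), with edgeR adjusted p-values of 0.895 and 0.594.

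Hspa1a, the heat-induced HSP70 (chr17:34969190-34972156, minus strand), was the lowest member per length in all groups, at 72 to 416 counts per library. Its level was 9.78, 6.86, 8.41 and 5.84 CPM in KO antimiR-21, 11.2, 5.06, 6.75 and 6.14 CPM in KO PBS, and 8.61, 11.3 and 3.15 CPM in HET PBS. The groups overlap throughout, and the spread within HET PBS alone (coefficient of variation 54.0%) is wider than any difference between means. The edgeR log2 difference was 0.08 for KO antimiR-21 against KO PBS, 0.00 for KO antimiR-21 against HET PBS and -0.08 for KO PBS against HET PBS. The intervals of Hspa1a ran from -0.70 to 0.87, from -0.86 to 0.86 and from -0.92 to 0.76 in the same order, so that differences of that size were not detectable with these libraries.

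Among the HSP70 partners, Hsph1 encodes an HSP110 exchange factor that also works in disaggregation (chr5:149614287-149636376, minus strand). Its level was 164, 126, 135 and 131 CPM in KO antimiR-21, 123, 114, 135 and 118 CPM in KO PBS, and 144, 198 and 133 CPM in HET PBS. HET PBS replicate 2 was the highest library, and KO PBS replicate 3 lay above HET PBS replicate 3, so the groups overlap. The edgeR log2 difference of Hsph1 was -0.37 in KO PBS against HET PBS (SE 0.137, unadjusted p = 0.0201, adjusted p = 0.623), 0.18 in KO antimiR-21 against KO PBS (interval -0.10 to 0.46) and -0.19 in KO antimiR-21 against HET PBS (interval -0.49 to 0.11).

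Dnajb1, an HSP40 that delivers clients to HSP70 and is a sensitive marker of HSF1 activity (chr8:83608193-83612653, plus strand), was among the steadiest members. It had 35.1, 29.8, 37.5 and 36.2 CPM in KO antimiR-21, 32.4, 38.5, 32.8 and 28.5 CPM in KO PBS, and 31.2, 36.0 and 35.6 CPM in HET PBS. Its highest library was 1.35 times its lowest, a ratio that was 1.36 for the Hsp90ab1/Slc35b2 locus and between 1.60 and 3.58 for the others. The means of 34.7 ± 3.37, 33.0 ± 4.14 and 34.3 ± 2.65 CPM (SD, n = 4, 4 and 3) overlap, and the edgeR intervals ran from -0.16 to 0.30 for KO antimiR-21 against KO PBS, from -0.24 to 0.27 for KO antimiR-21 against HET PBS and from -0.31 to 0.20 for KO PBS against HET PBS.

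Of the cytosolic HSP90 genes, Hsp90aa1 is the inducible one (chr12:110690605-110702728, minus strand). It had 179, 175, 234 and 224 CPM in KO antimiR-21, 241, 272, 345 and 302 CPM in KO PBS, and 194, 253 and 332 CPM in HET PBS. Every KO antimiR-21 library was below every KO PBS library, by a gap from 234 to 241 CPM, while HET PBS spanned nearly the whole range of both. Groups that do not overlap, with KO antimiR-21 lower, occurred in 2.29% of all loci in that comparison. The edgeR log2 difference was -0.51 (SE 0.170, interval -0.88 to -0.14, unadjusted p = 0.0108, adjusted p = 0.442). It was -0.36 for KO antimiR-21 against HET PBS (interval -0.75 to 0.04) and 0.16 for KO PBS against HET PBS (interval -0.24 to 0.56).

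Hsp90ab1, the constitutive HSP90 (chr17:45567775-45573271, minus strand), was read as the joint locus with Slc35b2 (chr17:45563874-45567671, plus strand). The locus had 942, 953, 958 and 1092 CPM in KO antimiR-21, 986, 1132, 1262 and 1173 CPM in KO PBS, and 947, 1236 and 1277 CPM in HET PBS. In KO antimiR-21, 3 libraries lay within a narrow band and the remaining one, with Y-linked reads, stood above them. The edgeR log2 difference was -0.21 for KO antimiR-21 against KO PBS (interval -0.46 to 0.05), -0.23 for KO antimiR-21 against HET PBS (interval -0.50 to 0.05) and -0.02 for KO PBS against HET PBS (interval -0.29 to 0.25).

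Hspb1, the small heat shock protein HSP25 of the mouse, which also steadies actin filaments (chr5:135887919-135889563, plus strand), was low and uneven. It had 17.4, 9.07, 10.6 and 11.5 CPM in KO antimiR-21, 12.6, 11.2, 8.16 and 9.76 CPM in KO PBS, and 9.21, 9.56 and 6.13 CPM in HET PBS. KO antimiR-21 replicate 1 was the highest of all libraries and HET PBS replicate 3 the lowest, and the groups overlap. The edgeR log2 difference was 0.55 for KO antimiR-21 against HET PBS (SE 0.241, unadjusted p = 0.0433, adjusted p = 0.607), 0.22 for KO antimiR-21 against KO PBS (interval -0.26 to 0.71) and 0.33 for KO PBS against HET PBS (interval -0.20 to 0.85). The summed leukocyte and tubular injury markers were higher in every KO antimiR-21 library than in any HET PBS library. The summed red cell markers, mostly the Alas2/Tmem29 locus, were lower in every KO antimiR-21 library than in any HET PBS library. Adipocyte markers peaked in the same KO antimiR-21 replicate 1. Tubular injury genes summed to 2608 to 3235 CPM in KO antimiR-21 and 1207 to 2587 CPM in HET PBS, and 4 of the 11 were higher at an unadjusted p under 0.05 by edgeR (8.1% of all loci in either direction). Spp1, most of that sum, overlapped between these groups, at 2004 to 2713 CPM in KO antimiR-21 and 741 to 2026 CPM in HET PBS. The list also holds the Cryab/Hspb2 locus. The part of all these markers in the Hspb1 values was not tested.

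The mitochondrial chaperonin pair is encoded head to head on chromosome 1, where the annotated genes overlap by 112 bases. Hspd1 (chr1:55077835-55088243, minus strand), the folding cage HSP60, had 417, 423, 411 and 570.4 CPM in KO antimiR-21, 388, 497, 599.8 and 509.8 CPM in KO PBS, and 438, 619.7 and 660.1 CPM in HET PBS. Hspe1 (chr1:55088132-55091307, plus strand), its lid HSP10, had 95.9, 91.0, 87.5 and 114 CPM in KO antimiR-21, 96.4, 125, 129 and 112 CPM in KO PBS, and 95.5, 121 and 139.9 CPM in HET PBS. The levels of both ran nearly in parallel over the libraries, and the groups overlap for both. The library kit was unstranded, so reads from the 112 shared bases may have been counted for either gene. Their part in the parallel levels was not tested. By edgeR, Hspd1 had log2 differences of -0.13 for KO antimiR-21 against KO PBS (interval -0.50 to 0.24), -0.33 for KO antimiR-21 against HET PBS (interval -0.72 to 0.06) and -0.20 for KO PBS against HET PBS (interval -0.59 to 0.19). Those of Hspe1 were -0.25 (interval -0.54 to 0.04), -0.29 (interval -0.60 to 0.02) and -0.04 (interval -0.35 to 0.27) in the same order.

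Hsp90aa1, the Hsp90ab1/Slc35b2 locus and the chaperonin pair were higher in libraries with Y-linked reads, by calls that did not hold with replicate numbers as a block. The block overlaps with Y-linked status, since no replicate 1 library had Y-linked reads and every replicate 4 library had them. That fit can separate the block from the status only in part. When Y-linked status was fitted as a term beside the groups, 4 of the 9 members rose in the libraries with Y-linked reads and none fell, and over all loci 10.9% passed as higher and 6.94% as lower at an edgeR adjusted p under 0.05. Hspd1 averaged 592 ± 56.3 CPM in the 5 libraries with Y-linked reads and 429 ± 37.2 CPM in the 6 without (SD), a log2 difference of 0.43 (SE 0.0832, edgeR adjusted p = 0.00395). The lowest library with them, at 509.8 CPM, was above the highest without, at 497 CPM. The Hsp90ab1/Slc35b2 locus averaged 1208 ± 76.0 CPM with and 986 ± 72.9 CPM without Y-linked reads (log2 difference 0.26, SE 0.0725, edgeR adjusted p = 0.0290). Hsp90aa1 averaged 291 ± 51.6 CPM with and 216 ± 39.0 CPM without (log2 difference 0.36, SE 0.111, edgeR adjusted p = 0.0422), and Hspe1 123 ± 11.3 CPM with and 98.5 ± 13.3 CPM without (log2 difference 0.27, SE 0.0868, edgeR adjusted p = 0.0479).

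Separation within each of the 3 groups held for Hspd1 and for Hsp90ab1/Slc35b2, a pattern that 11.3% of all loci showed in the direction of higher with Y-linked reads and 8.17% in the direction of lower. The edgeR call of Hspd1 stood when any 1 of the 11 libraries was left out, with adjusted p-values up to 0.0387. With replicate numbers as a block, none of the 4 calls stood, at edgeR adjusted p-values of 0.168 for Hspd1, 0.351 for Hsp90ab1/Slc35b2, 0.547 for Hsp90aa1 and 0.408 for Hspe1, and Hspe1 also missed with limma-voom (adjusted p = 0.0501). The edgeR call of Hsp90ab1/Slc35b2 stood in 4 of the 11 omissions, that of Hsp90aa1 in 4 and that of Hspe1 in 2, and without HET PBS replicate 1, the only HET PBS library without Y-linked reads, the edgeR adjusted p-values of these 3 were 0.203, 0.251 and 0.262. Hspa8, with 864 ± 291 CPM with and 842 ± 126 CPM without Y-linked reads, had a log2 difference of 0.05 (interval -0.26 to 0.36), and that of Dnajb1 was -0.01 (interval -0.22 to 0.20). Hspa1a, Hsph1 and Hspb1 did not pass either, at -0.36, 0.06 and -0.26. Since Y-linked reads were in 1 of 4 KO antimiR-21, 2 of 4 KO PBS and 2 of 3 HET PBS libraries, they are unevenly spread over the groups. With the status as a covariate, the edgeR log2 difference of Hspd1 was -0.03 for KO antimiR-21 against KO PBS and -0.15 for KO antimiR-21 against HET PBS.

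**Figure D3:**
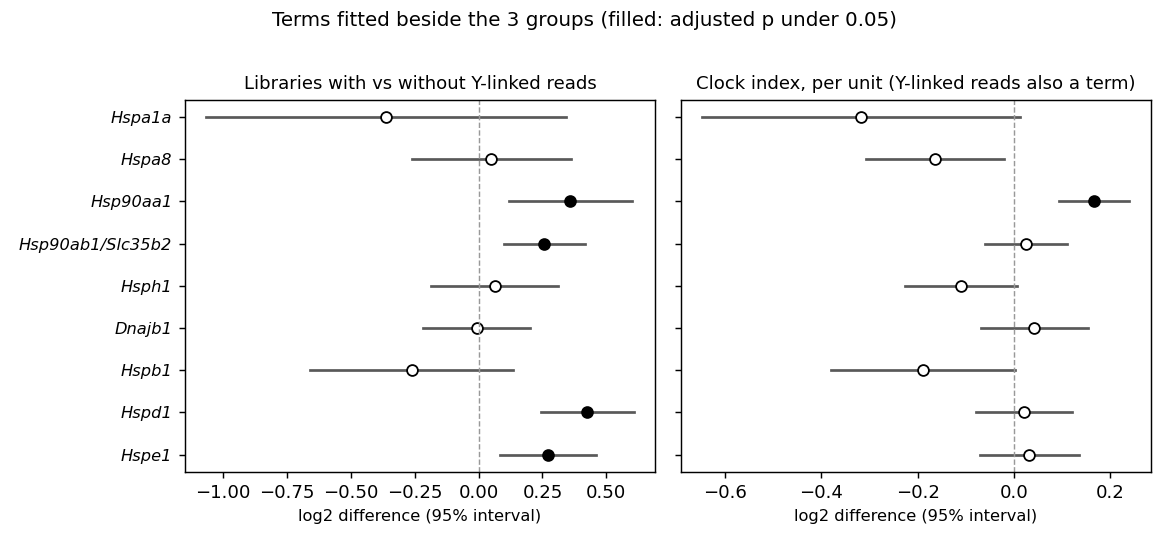
Left, log2 difference of libraries with against those without Y-linked reads for each chaperone locus, and right, log2 difference per unit of the clock index with Y-linked status also in the model, both from edgeR beside the 3 groups with 95% intervals. Filled points passed an adjusted p under 0.05: Hsp90aa1, Hsp90ab1/Slc35b2, Hspd1 and Hspe1 on the left and Hsp90aa1 alone on the right.

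Along an index of the circadian clock genes Hsp90aa1 was the only member called, and that call depended on the model and on single libraries, while Hspa8 had a slope of the opposite sign that did not pass. As background, the activity of HSF1 and the mRNA of several chaperones vary over the day in mouse liver. The hour of tissue collection is not given in the sources used here. A clock index was taken as the mean log2 CPM of 4 genes of the Arntl side (Arntl, Npas2, Clock, Nfil3) minus that of 5 genes of the opposite side (Nr1d1, Nr1d2, Per3, Tef, Hlf). It was -5.28, -5.20, -2.94 and -4.95 in the KO antimiR-21 libraries, -2.53, -2.28, -2.25 and -2.29 in those of KO PBS, and -4.56, -5.30 and -2.41 in those of HET PBS. KO antimiR-21 replicate 3 and HET PBS replicate 3 thus stood with the KO PBS libraries and apart from the rest of their groups. In those 2 libraries Hspa8 was the lowest of its group, at 749.7 and 813 CPM, and Hsp90aa1 the highest of its group, at 234 and 332 CPM. Hspd1 and Hspe1 did not follow such a pattern. They were lowest of the group in the KO antimiR-21 library (411 and 87.5 CPM) and highest in the HET PBS library (660.1 and 139.9 CPM). How many of all loci were at an extreme in these libraries was not counted.

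**Figure D4:**
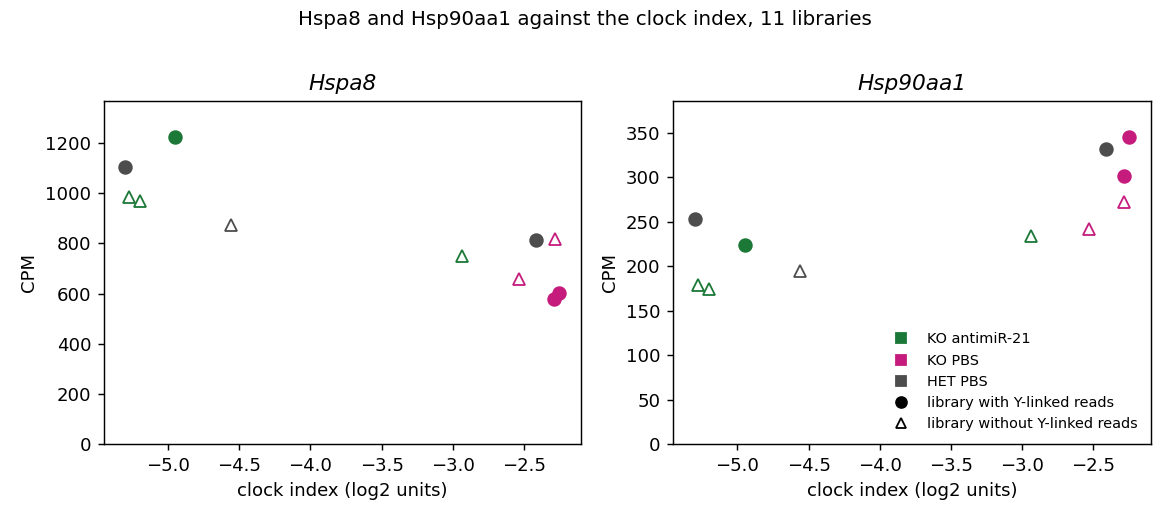
Level of Hspa8 (left) and Hsp90aa1 (right) in CPM against the clock index in log2 units, one point per library, with colour for the group and filled or open symbols for the presence or absence of Y-linked reads. The 6 libraries with an index above -3 have 579 to 816 CPM of Hspa8 and the 5 below it 873 to 1222 CPM. The 6 include every KO PBS library, so this split is not separate from the difference between groups. The slope of Hspa8 along the index did not pass (edgeR adjusted p = 0.295).

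Fitted beside the groups and Y-linked status, the clock index passed for Hsp90aa1 and for no other member. Hsp90aa1 rose by a log2 difference of 0.17 per unit of the index (SE 0.0334, edgeR adjusted p = 0.0392), where 0.747% of all loci passed as higher and 0.498% as lower. This call stood in only 2 of the 11 omissions of a library, without KO PBS replicate 2 and without KO PBS replicate 4, with edgeR adjusted p-values up to 0.335 in the others, and without Y-linked status in the model it was 0.512. With replicate numbers as a block it was 1. Hspa8 had -0.16 per unit (SE 0.0653, unadjusted p = 0.0283, edgeR adjusted p = 0.295). Among the other members, Hspa1a had -0.32, Hspb1 -0.19 and Hsph1 -0.11 per unit, and Hspd1, Hspe1 and the Hsp90ab1/Slc35b2 locus 0.02 to 0.03. The index and the treatment cannot be fully told apart, since all 4 KO PBS libraries lie on one side of it.

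The differences of Hspa8 and Hsp90aa1 between groups were smaller once the index was in the model, but that fit cannot separate the index from the groups. Within groups the index varied mainly through KO antimiR-21 replicate 3 and HET PBS replicate 3. Not every member moved towards 0, since the difference of Hspa1a for KO antimiR-21 against KO PBS grew and changed sign. With the clock index as a covariate the edgeR log2 difference of Hspa8 was 0.19 for KO antimiR-21 against KO PBS (unadjusted p = 0.388) and -0.19 for KO PBS against HET PBS (unadjusted p = 0.326), against 0.56 and -0.49 without it. That of Hsp90aa1 for KO antimiR-21 against KO PBS was -0.13 with the index and -0.06 with both the index and Y-linked status, against -0.51 with neither. With Y-linked status alone it was -0.42. Hspa8 kept 0.57 for KO antimiR-21 against KO PBS with Y-linked status alone. Among libraries without Y-linked reads the Hspa8 log2 difference for KO antimiR-21 against KO PBS was 0.30 (3 and 2 libraries), and among those with them it was 1.04 (1 and 2 libraries). None of the 13 clock loci passed edgeR's adjusted test in any comparison. Before adjustment, 10 of them had a p under 0.05 for KO antimiR-21 against KO PBS (8.28% of all loci), 6 higher and 4 lower, and 6 had one for KO PBS against HET PBS (6.84%), each lower. Nr1d2, itself part of the index, had 152 to 208 CPM in KO antimiR-21 and 118 to 126 CPM in KO PBS (edgeR adjusted p = 0.326). The part of the time of day in the chaperone values was not tested.

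Pairs of members differed in how closely their levels ran together over the libraries. After group means were taken out, Pearson's r of log2 CPM over the 11 libraries lay between 0.74 and 0.98 for the 6 pairs among Hsp90aa1, Hsp90ab1/Slc35b2, Hspd1 and Hspe1. Hsp90ab1/Slc35b2 with Hspd1 had 0.98, and Hspd1 with Hspe1, whose annotated genes overlap, had 0.94. With Y-linked status taken out as well, these pairs lay between 0.44 and 0.94, and Hspd1 with Hspe1 kept 0.94. Dnajb1 was then about as close to these loci as Hsp90aa1 was, with r of 0.55 with Hsp90aa1 and 0.67 with each of the other 3, so that the set is not separate from it. Another set was Hsph1, Hspa1a and Hspb1, with r of 0.69 for Hsph1 with Hspa1a, 0.66 for Hspa1a with Hspb1 and 0.55 for Hsph1 with Hspb1, and 0.81, 0.61 and 0.69 with Y-linked status also taken out. Between these sets r was mostly negative, as low as -0.68 for Hspa1a with Hspe1. The sets were picked out after the values were seen, all pairs share the same libraries and their scaling, and the values are a description.

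**Figure D5:**
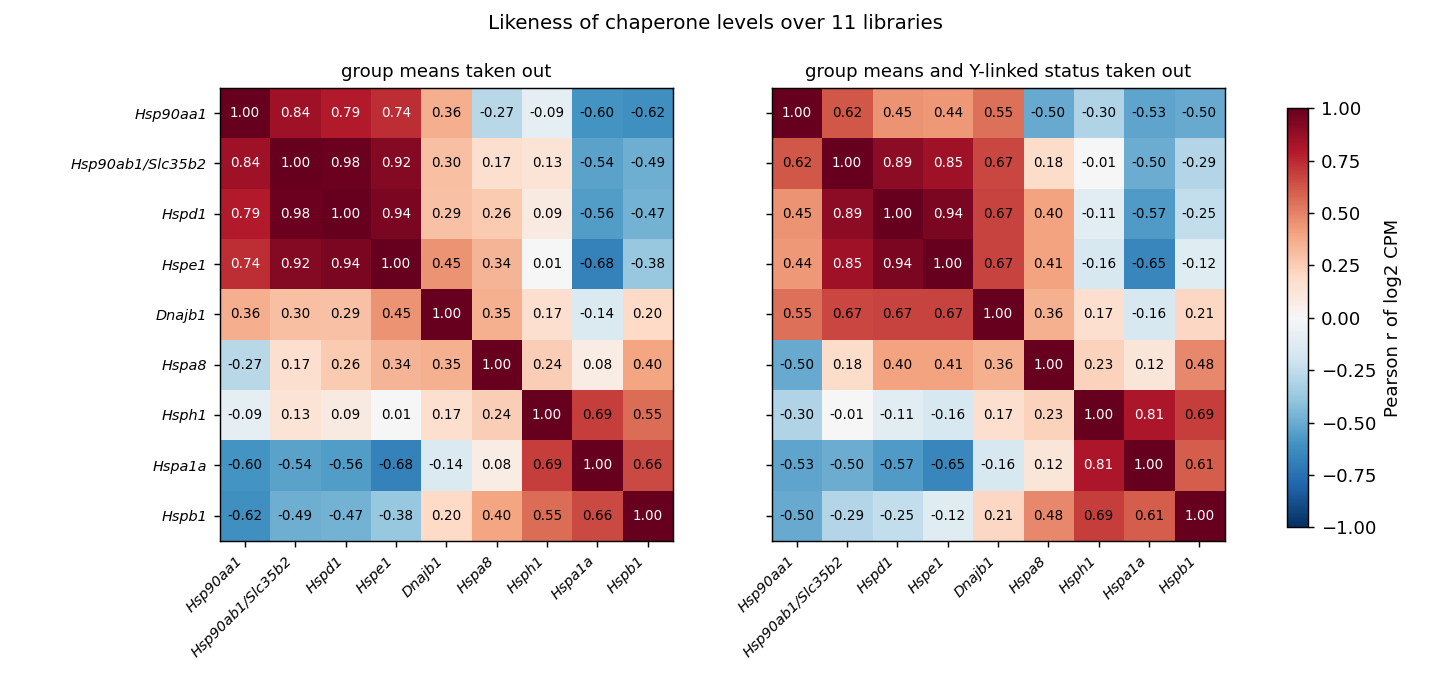
Pearson's r of log2 CPM between chaperone loci over the 11 libraries, with group means taken out (left) and with group means and Y-linked status taken out (right). Hsp90aa1, Hsp90ab1/Slc35b2, Hspd1 and Hspe1 form the block at the upper left (0.74 to 0.98, and 0.44 to 0.94 on the right), and Hsph1, Hspa1a and Hspb1 the one at the lower right.

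The genes most like the heat-inducible members were sought with the mean centred log2 CPM of Hspa1a, Hsph1, Dnajb1, Hsp90aa1 and Hspb1, among 9894 loci of at least 5 CPM outside the lists used here. That mean follows only some of the 5: after group means were taken out, its r was 0.85 with Hspa1a, 0.87 with Hsph1 and 0.78 with Hspb1, but 0.29 with Dnajb1 and -0.28 with Hsp90aa1. The genes named next are thus like the mean and not like every member. Lamb3, a laminin chain, came first with r = 0.97 over the 11 libraries and 0.97 after group means were taken out, and Gem, a small GTPase gene, second with 0.91 and 0.92. Lamb3 had 19.2, 5.04, 12.9 and 7.72 CPM in KO antimiR-21, 16.1, 5.92, 9.57 and 7.40 CPM in KO PBS, and 8.95, 15.8 and 3.42 CPM in HET PBS. Next were Npy1r (0.87), Gpr110 (0.86) and Endod1 (0.85) over the libraries, and Nupr1 (0.90), Mllt3 (0.90) and S100a6 (0.87) after group means were taken out. Within the lists, the joint locus of Cryab, a small heat shock protein, and Hspb2 had 0.85 after group means were taken out and Bag3, an HSF1 target that links HSP70 to small heat shock proteins, 0.75, while Hsf1 itself had 0.46. Cryab/Hspb2 and Bag3 had the highest r of the listed heat-inducible partners. The other partners ran from -0.34 for Serpinh1 to 0.61 for Zfand2a, with 0.10 for Dnaja1/Smu1 and -0.04 for Chordc1. Junb, an immediate early gene, had 0.73, near Bag3. The Cryab/Hspb2 locus was lowest in HET PBS replicate 3 (62.5 CPM) and KO antimiR-21 replicate 2 (73.6 CPM), and between 94.3 and 167 CPM in the other 9 libraries.

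The wider chaperone network did not pass the test between groups either. No gene passed edgeR's adjusted test in any comparison among 5 heat shock factors and regulators, 15 heat-inducible partners, 17 HSP70 co-chaperones and relatives, 11 HSP90 co-chaperones, 6 small heat shock proteins, 10 loci of the TRiC chaperonin and prefoldin, 10 mitochondrial chaperones and proteases, and 8 relatives in the endoplasmic reticulum. Hsf1, the master regulator, had 34.6 to 39.8 CPM in KO antimiR-21, 35.9 to 40.5 CPM in KO PBS and 38.7 to 41.8 CPM in HET PBS. At an unadjusted p under 0.05, edgeR found at most 3 genes of a list in any comparison. The highest count was in the heat-inducible partners, with 3 of 15 for KO antimiR-21 against HET PBS (8.1% of all loci) and 3 of 15 for KO PBS against HET PBS (6.84%), in each case 1 higher and 2 lower. Serpinh1, the collagen chaperone HSP47, had 99.5 to 122 CPM in KO antimiR-21, 140.3 to 159.6 CPM in KO PBS and 116 to 142 CPM in HET PBS. KO antimiR-21 lay below KO PBS without overlap, a pattern that 2.29% of all loci showed in that direction. The log2 difference between these groups was -0.44 (edgeR unadjusted p = 0.000733, adjusted p = 0.326). Cct3, a subunit of the cytosolic chaperonin TRiC, had a log2 difference of -0.28 for KO antimiR-21 against KO PBS, where 9 of the 10 loci of its list lay below 0 against 52.5% of all loci. For KO antimiR-21 against HET PBS all 10 of them lay below 0, with a median of -0.10, against 49.5% of all loci. This was not particular to that list. In the same comparison 5 of 5 regulators, 11 of 15 heat-inducible partners and 9 of 10 mitochondrial loci lay below 0, but 2 of 6 small heat shock proteins. Loci of a list can vary together, so their signs are not independent. Within KO antimiR-21 every TRiC and prefoldin locus was highest in replicate 4, the only library of that group with Y-linked reads. Y-linked reads are unevenly spread over the groups, and their part in these signs was not tested.

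Other HSP70 and HSP90 partners had differences short of the adjusted threshold. Some were wide but uncertain, such as Fkbp5, at 0.97 for KO antimiR-21 against KO PBS (interval -0.28 to 2.23, edgeR unadjusted p = 0.115). Dnaja1/Smu1, an HSP40 locus, had 197 to 273 CPM in KO antimiR-21, 183 to 229 CPM in KO PBS and 225 to 289 CPM in HET PBS, with an edgeR log2 difference of -0.32 for KO PBS against HET PBS (unadjusted p = 0.0265, adjusted p = 0.671). Chordc1, an HSP90 partner, had -0.24 for KO PBS and -0.26 for KO antimiR-21, each against HET PBS. Dnaja2 had -0.28 for KO PBS against HET PBS without overlap of the groups, a pattern that 2.66% of all loci showed in that direction. Sdf2l1, an endoplasmic reticulum chaperone component, had 0.55 for KO PBS against HET PBS and -0.29 for KO antimiR-21 against KO PBS, both short of the adjusted threshold. The cold-inducible RNA-binding genes, which move opposite to heat shock genes with body temperature, had 57.5 to 87.5 CPM of Cirbp and 86.6 to 122 CPM of Rbm3 (a joint locus with 2900002K06Rik) over all libraries, with no call between groups.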

How the data were processed

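Messenger RNA of whole kidney was measured by sequencing in 11 libraries. The 150 ng of input RNA and the unstranded TruSeq RNA v2 kit are given in the labels' protocols. Per the submitters' processing notes, HTSeq 0.5.4p5, STAR, limma, SAMtools, FastQC and the build mm10 were used, without roles. How reads were counted is not stated in those notes. The deposited files hold estimated counts per gene, not normalized by the authors, in steps of 0.5 (47.4% not whole). The authors also deposited a log2 matrix that equals log2 CPM up to a constant per library, and it served as an alternative.

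Rows identical in all 11 libraries (total of at least 50 counts) were joined, giving 1513 joint loci, chosen after the files were examined. Estimated counts were rounded, filtered with filterByExpr (14449 loci) and scaled by TMM (factors 0.927 to 1.08). Total counts were 22.4 to 49.7 M as deposited. edgeR 4.0.16 (R 4.3.3) fitted a robust quasi-likelihood model to all 3 groups (biological coefficient of variation 0.214), with two-sided tests and Benjamini-Hochberg adjustment at 0.05 over all loci. The fit was tested on simulated data. Alternatives were other scaling and filtering, rows as deposited, DESeq2 1.42.0, limma 3.58.1 with voom weights, a replicate block, Y-linked status (Ddx3y above 5 CPM) and the clock index as covariates, subsets of libraries, and the omission of each library. The 2 covariates together, and all alternatives of the tests of Y-linked status and clock index, were chosen after seeing the data. Dbp and Ciart, listed for the clock, were not analysed here. Positions are from GENCODE on GRCm38 and start-site windows from RefSeq.

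The members, the gene lists and the tests were chosen with earlier results of these data known. The genes named are all members, the 2 of each list with the smallest p per comparison, Hsf1, Cirbp, Rbm3, Fos, Arntl, Col4a3, Ddx3y, kidney markers and the 5 loci most like the inducible members. Bag3, Zfand2a, Junb and Spp1, all listed genes, were named after their values were seen. Kidney epithelium markers summed to 15002 to 17652 CPM, and skeletal muscle, red cell, adipocyte, adrenal cortex, leukocyte, immediate early and tubular injury lists were read in the same way.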

Additional observations from a re-analysis of the deposited data

Results flagged for a closer look

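In KO antimiR-21 replicate 4, the Hsp90ab1/Slc35b2 locus was at 1092 CPM, while the other 3 libraries of the group were at 942 to 958 CPM, a gap of 0.894 of the group's range. In the same library Hspd1 was at 570.4 CPM, against 411 to 423 CPM in the other 3, a gap of 0.927 of the range. Both gaps exceed the critical value of Dixon's test for 4 samples. The 9 loci in the 2 groups of 4 libraries gave 18 sets of values to check, and chance marks about 1 set in 20. That library is the only one of KO antimiR-21 with Y-linked reads.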

How the results depend on the processing

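In each of the alternatives run, 0 of the 9 chaperone loci passed between groups, over 648 values, with a lowest adjusted p of 0.0629. Counts of all loci called were 0 for KO antimiR-21 against KO PBS, 1 for KO antimiR-21 against HET PBS and 0 for KO PBS against HET PBS. DESeq2 called 138, 75 and 85. The replicate block called 25, 4 and 2, the authors' log2 matrix 0, 2 and 1, no filter 0, 1 and 1, Y-linked status as a covariate 0, 2 and 3, and both covariates 0, 3 and 1. limma-voom, the clock index as a covariate and either subset by Y-linked reads called 0 for KO antimiR-21 against HET PBS. With 1 library left out the counts ran from 0 to 16, 0 to 4 and 0 to 2, and the highest counts came without KO antimiR-21 replicate 3, KO PBS replicate 1 and KO PBS replicate 2.

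For Y-linked status, 2571 loci and 4 members were called, 1203 to 3748 loci and 1 to 4 members with 1 library left out, and 546 loci and 0 members with the replicate block. The loci fell below 2571 by over 1.5 times without HET PBS replicate 1 (1203), KO PBS replicate 3 (1625) and KO antimiR-21 replicate 4 (1550). Hspe1 alone missed the threshold with limma-voom (adjusted p = 0.0501). For the clock index, 180 loci and 1 member were called, 470 loci with DESeq2, 24 to 337 loci and 0 to 1 members with 1 library left out, and 0 loci and 0 members with the replicate block. The loci moved from 180 by over 1.5 times without KO antimiR-21 replicates 1 (97), 2 (104) and 3 (24), KO PBS replicate 2 (337), and HET PBS replicates 2 (42) and 3 (31). Replicate numbers did not pair the libraries, since the deviations of same-numbered libraries correlated by 0.629, -0.446 and 0.385 in KO PBS against HET PBS and by as little as -0.208 in KO antimiR-21 against KO PBS. The cause of these shifts was not tested.

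Of the 648 member values, 56 had the other sign, all short of the threshold. For KO antimiR-21 against KO PBS they were Hspa1a -0.012 with Y-linked status as a covariate, Hspa1a -0.57, Hsph1 -0.061 and Hspb1 -0.22 with the clock index as a covariate, Dnajb1 -0.040 with only libraries without Y-linked reads, Hspa1a -0.15 and Hspd1 0.029 with only libraries with Y-linked reads, Hspa1a -0.70, Hsph1 -0.045, Hspb1 -0.26 and Hspd1 0.017 with both covariates. For KO antimiR-21 against HET PBS they were Hspa1a -0.0080 with RLE size factors, Hspa1a -0.0086 with no filter, Hspa1a -0.0049 with DESeq2, Hspa1a -0.17 with Y-linked status as a covariate, Hspa8 -0.0077 with the clock index as a covariate, Hspa1a -0.0020 with only the 2 groups compared, Hspa1a -0.026, Hsp90aa1 0.030 and Hsp90ab1 0.022 with only libraries without Y-linked reads, Hspa1a -0.33 with only libraries with Y-linked reads, Hspa1a -0.18 with both covariates. For KO PBS against HET PBS they were Hspa1a 0.036 with the authors' deposited log2 matrix, Hspa1a 0.050 with the replicate block, Hsp90ab1 0.031 and Hspe1 0.017 with Y-linked status as a covariate, Hspa1a 0.58 and Hsp90aa1 -0.13 with the clock index as a covariate, Hsp90ab1 0.16, Dnajb1 0.19, Hspd1 0.017 and Hspe1 0.21 with only libraries without Y-linked reads, Hspa1a 0.52 and Hsp90aa1 -0.052 with both covariates. With 1 library left out the log2 differences that changed sign ran over Hspa1a -0.055 to 0.38 for KO antimiR-21 against KO PBS, over Dnajb1 -0.062 to 0.081, Hspa1a -0.37 to 0.39, Hspa8 -0.046 to 0.22, Hsph1 -0.30 to 0.0059 for KO antimiR-21 against HET PBS, over Hsp90aa1 -0.041 to 0.37, Hsp90ab1 -0.17 to 0.060, Hspa1a -0.45 to 0.31, Hspe1 -0.21 to 0.092 for KO PBS against HET PBS. Depth limits Hspa1a and Hspb1 most, with as few as 72 and 140 counts per library.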

Other observations

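Fkbp5, an HSP90 co-chaperone gene that glucocorticoids induce, had the widest range among the HSP90 partners named here, at 84.6, 137, 21.6 and 182 CPM in KO antimiR-21, 76.1, 29.7, 61.8 and 48.7 CPM in KO PBS, and 74.8, 155 and 88.7 CPM in HET PBS. Its edgeR log2 difference was 0.97 for KO antimiR-21 against KO PBS (interval -0.28 to 2.23) and -0.98 for KO PBS against HET PBS (interval -2.31 to 0.36). The edgeR adjusted p-values were 0.720 and 0.823.

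None of the 15 immediate early genes passed edgeR's adjusted test in any comparison. Egr2 had 0.911 to 2.28 CPM in KO antimiR-21, 0.861 to 3.36 CPM in KO PBS and 0.175 to 0.389 CPM in HET PBS. At an unadjusted p under 0.05, 6 of the 15 were higher in KO antimiR-21 than in HET PBS (8.1% of all loci in either direction) and 10 in KO PBS than in HET PBS (6.84%). Leukocyte and tubular injury markers were higher in the same comparisons, with 2 of 3 and 4 of 11 at that level for KO antimiR-21 and 2 of 3 and 6 of 11 for KO PBS, and their part was not tested. The difference between this list and the chaperones was not tested. The immediate early list held 1 higher and 1 lower gene at that level for KO antimiR-21 against KO PBS.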
